A study of Homo sapiens with 6 samples.

Results

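The long 3′ untranslated regions (3′ UTRs) of CELF1-associated mRNAs are described here by the stretches that lie far from both of their borders. CELF1 (CUGBP1) RNA immunoprecipitation sequencing (RIP-Seq) of SK-Mel-103 and UACC-62, both established human melanoma cell lines, recovered RNA with an antibody to the protein (IP) and set it beside RNA of the same lysate (input). SK-Mel-103 was represented by replicate 1 alone and UACC-62 by replicates 1 and 3, all from cells grown in the same serum-containing medium and fixed with formaldehyde, and no further treatment or genetic change is named. Of 6 samples in the series, the 3 inputs entered as a column of the 3 IP lists, and IgG precipitates named in the methods were not analysed here. Each list holds bins of 20 nt in which IP reads passed the authors' test against input, with the IP read count and an input value of each bin. Where 3 values follow one another below, the first is of SK-Mel-103, the second of UACC-62 replicate 1 and the third of its replicate 3.

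Members are the bins present in all 3 lists whose centre lies in a 3′ UTR of more than 5000 nt, at least 1000 nt from the stop codon and from the transcript end, in the transcript of each protein-coding gene with the longest coding sequence. These interior bins numbered 28497 of the 282942 bins listed in all 3 samples. They fell in 570 of the 1142 genes whose 3′ UTR exceeded 5000 nt, with a median of 26 bins per gene, up to 487 in LPP. The distribution was uneven, since 76 genes held 50% of the bins and 69 genes had a single bin. Because 212 bins lay in the 3′ UTRs of both genes of an overlapping or near-identical pair, they were counted for each (NOTCH2NLB with NOTCH2NLC, and IDS with an adjoining gene). With these included, 946 bins (3.32%) lay in an exon of a different gene on the same strand as well, and their reads cannot be told apart.

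A 3′ UTR follows the stop codon of an mRNA and holds elements that control stability, translation and location of the transcript. CELF1 binds GU-rich elements through its RNA recognition motifs and is known as a regulator of alternative splicing in the nucleus and of mRNA decay and translation in the cytoplasm. Long 3′ UTRs often carry several cleavage and polyadenylation sites, so that their distal part is absent from shorter transcript forms, and they are dense in sites for microRNAs and for RNA-binding proteins such as AGO and PUM family members.

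The strongest interior bins are shown first, since they show which letters the highest IP over input fell on. Bins with more than 30 IP reads in every sample were ranked by their lowest IP over input of the 3 samples, with 1 bin per gene. Coordinates are of GRCh37, letters are of the transcript strand read 5′ to 3′, and capitals mark TGTT and TGTG, the short cores of GU-rich elements.
MRPL19, chr2:75887641-75887660, + strand: ttattgaagattgtagcagt
UBXN7, chr3:196075721-196075740, - strand: cagcagtgtcTGTGcaggct
FGF13, chrX:137713861-137713880, - strand: tTGTTaaaaatcTGTGTTcc
CDK6, chr7:92243401-92243420, - strand: gacaggagtggccttgaaat
PEX26, chr22:18572361-18572380, + strand: gcacTGTGtccttggTGTTg
TNPO1, chr5:72207381-72207400, + strand: acatcatgggatatatataa
CELF1, chr11:47489981-47490000, - strand: tttaaagacaactttgaagt
ELK4, chr1:205579841-205579860, - strand: ctagtctattttatactaaa

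The MRPL19 bin, 5240 nt past the stop codon of a mitochondrial ribosomal protein mRNA, had 61, 98 and 72 IP reads beside 0, 1 and 0 input reads. In CELF1 itself, 3791 nt past the stop codon, the bin had 246, 279 and 252 IP reads beside 7, 7 and 6 input reads. The CDK6 bin, 1043 nt past the stop codon, had 288, 559 and 409 IP reads beside 7, 7 and 9 input reads. Each of these bins held many more IP than input reads in all 3 samples. The FGF13 bin held 37, 104 and 186 IP reads beside 0, 0 and 3 input reads, and it is the only one of the 8 in which TGTT and TGTG overlap.

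A second set shows the highest bin of the 6 longest unbroken runs of interior bins, 1 per gene and with the same genes left out. Among the genes kept, these runs are the most continuous coverage found far from either border.
TNPO1, chr5:72207481-72207500, + strand: tacattccagTGTTtctgcc
UHMK1, chr1:162497401-162497420, + strand: tggcagtTGTGTTTGTGgca
NUCKS1, chr1:205683141-205683160, - strand: gttgcagcaaaccttatgca
CDK6, chr7:92243361-92243380, - strand: tactttctgccacacactgc
MLEC, chr12:121138501-121138520, + strand: tttctctttcagtccaaact
XPO4, chr13:21355381-21355400, - strand: tttattaacttctccggtct

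The run of TNPO1, which encodes a nuclear import receptor, spanned 131 bins or 2620 nt, and its highest bin had 610, 877 and 667 IP reads beside 31, 56 and 35 input reads. The runs of UHMK1, a protein kinase, and NUCKS1, a nuclear DNA-binding protein, spanned 2400 and 2240 nt. In CDK6 the run was 1600 nt long and started with the bin 1043 nt past the stop codon, close to the border of the interior. The UHMK1 bin held the longest stretch of capitals of the 14, with 686, 677 and 794 IP reads beside 108, 95 and 107 input reads. Over all genes the bins formed 12342 runs, of which 7507 were 1 bin long, while 23.1% of the bins lay in runs of at least 10. A read of 40 nt is longer than a bin, and how the authors assigned reads to bins is not given in the sources used here, so neighbouring bins may share reads.

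Values of IP over input are log2 ratios of IP to input reads, each divided by the total of its list, with a pseudocount of 1 read. The listed bins held 10958459 to 14436573 IP reads and 8453517 to 10161917 input reads per sample. SOX10, a transcription factor of the melanocyte lineage, was listed in all 3 samples (66, 76 and 72 bins), and so were MITF (10, 137 and 154 bins) and MLANA (2, 65 and 90 bins), with far fewer bins in SK-Mel-103. TYR, DCT and S100B were listed in the UACC-62 samples and in no bin of SK-Mel-103, and PMEL and TYRP1 had no listed bin in any sample. Of 4 keratinocyte markers KRT10 was listed (8, 6 and 7 bins), and KRT5, KRT14 and KRT1 were not. Of 5 fibroblast markers LUM was listed in all samples (4, 29 and 30 bins) and DCN in 1 bin of UACC-62 replicate 3, whereas the collagens COL1A1, COL1A2 and COL3A1 had none. Of the leukocyte markers LYZ had 2, 4 and 3 bins, PTPRC 0, 4 and 2, and CD3E none. The part of other cell types in the results was not tested. The lists carry only bins that passed in IP, so every ratio is conditional on passing, and input outside these bins is not known.

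Interior bins had higher IP over input than the bins of the lists as a whole. The median bin reached 0.95, 1.01 and 1.27 in the 3 samples, against 0.21, -0.10 and 0.15 over all bins listed in the 3 samples. In every sample the interior median exceeded that of all bins. The interior bins took 6.04%, 7.73% and 7.99% of the IP reads of the lists and 3.11%, 3.14% and 2.89% of the input reads. The difference lay in input more than in IP, since the median interior bin had 13, 14 and 20 IP reads against 12, 12 and 16 for all bins, but 5, 7 and 5 input reads against 9, 12 and 10.

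**Figure D1:**
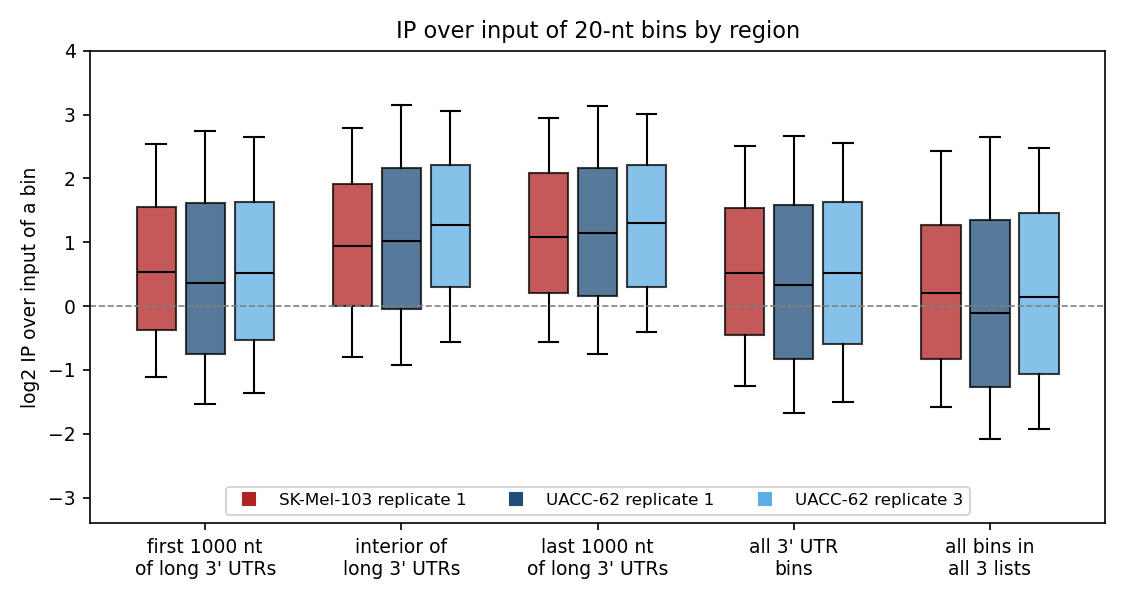
Log2 IP over input of 20-nt bins listed in all 3 samples, by region and sample (box: 25th to 75th percentile, line: median, whiskers: 10th to 90th percentile). Interior medians of 0.95 to 1.27 lie above those of the first 1000 nt of the same 3′ UTRs and near those of the last 1000 nt.

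Bins at or above 1 on the log2 scale in all 3 samples made up 31.8% of the interior bins (9049 bins, Wilson 95% confidence interval 31.2 to 32.3%, which covers counting error only), beside a background of 18.1% over all bins. At the other side, 463 interior bins (1.62%) were at or below -1 in all 3 samples, beside a background of 13.1%. The first 1000 nt of the same 3′ UTRs gave 22.3% and 5.55%, the last 1000 nt gave 33.5% and 0.909%, and all 3′ UTR bins gave 21.6% and 7.49%. By these counts the interior was close to the last 1000 nt and apart from the first 1000 nt. Input depth moved with these shares. Among bins with at least 10 input reads in all 3 samples, a limit set after the values had been seen, 15.9% of 5300 interior bins were at or above 1 and 7.98% at or below -1, against 4.88% and 33.5% of all such bins.

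More than 30 IP reads, the limit that the methods set, were found in all 3 samples for 3612 interior bins (12.7%), beside a background of 10.9% and 13.4% of all 3′ UTR bins. The interior therefore held no larger share of such bins than 3′ UTRs in general. Of the interior bins over 30 IP reads, 69.5% were at or above 1 in every sample. The limit itself selects on IP reads, and the background of 18.1% over all bins was taken without it. A share over all bins at this limit is not given, so the 69.5% is not read as a trait of interiors.

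The share of the interior that was listed declined with distance from the stop codon. Over the 1142 genes, 9.14% of the 20-nt positions of interiors were in all 3 lists, compared with 15.1% of the first 1000 nt and 7.52% of the last 1000 nt. In the 570 genes with members the shares were 18.5%, 29.0% and 15.0%. When each interior was divided into 5 equal parts, 27.0% of the positions were listed in the part nearest to the stop codon, then 20.4%, 16.7% and 14.9%, and 13.5% in the part nearest to the end. Among the listed bins, IP over input did not decline alongside. The median was 0.95 in each of the 5 parts in SK-Mel-103. From the part nearest to the stop codon to the last part it went from 0.91 to 1.06 in the lower and from 1.11 to 1.35 in the higher numbered UACC-62 replicate. Within 200 nt of the end of another annotated transcript of the same gene lay 5.83% of interior bins. Of interior positions 3.76% did, but these were taken over all 1142 genes and not over the 570 with members alone.

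**Figure D2:**
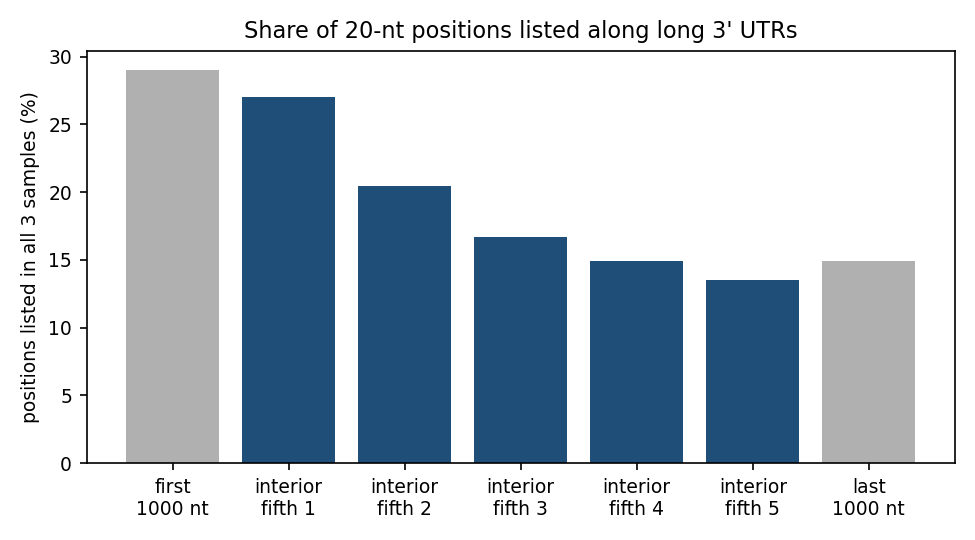
Share of 20-nt positions listed in all 3 samples (y axis, %) in the first 1000 nt, in 5 equal parts of the interior ordered from the stop codon, and in the last 1000 nt, over 570 genes with interior bins. The share falls from 29.0% next to the stop codon to 13.5% in the last part of the interior.

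Coverage of single interiors ranged from 1 bin to nearly all positions. In 75 genes at least 50% of the interior positions were listed, in 23 genes at least 75%, and in 8 genes at least 90%, namely TNPO1, NUCKS1, UHMK1, MLEC, CDK6, MRPL19, CELF1 and SP1. MLEC encodes a lectin of the endoplasmic reticulum and SP1 a transcription factor of GC-rich promoters. Genes with the longest 3′ UTRs were covered in a smaller part. For genes with at least 20 interior bins the median share listed was 31.5% for 3′ UTRs of 5000 to 6000 nt and 16.0% above 12000 nt (19 genes). Their median log2 IP over input was 0.81, 0.82 and 1.10 in the first class and 1.70, 1.78 and 1.86 in the second. Input depth per bin was not matched between these classes.

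IP and input reads were then summed over the interior bins of each gene and tested with edgeR's quasi-likelihood test, in 1 fit with the other 3′ UTR bins and the coding and 5′ UTR bins of every gene (11649 features), with each IP paired with its own input. All these bins had already passed the authors' test of IP against the same input. Calls and p-values of IP against input, here and for single genes below, are therefore conditional on passing and give no independent support for binding. A total of 505 interiors had enough reads to be tested. Of these, IP was higher than input in 263 and lower in 75 at an adjusted p under 0.05, beside a background of 15.7% of all features higher and 60.1% lower. That is 52.1% of the interiors tested higher and 14.9% lower, compared with 21.3% and 53.0% of the 5998 other 3′ UTR features and 5.58% and 72.8% of the 5146 coding features. The median log2 change was 0.68 for interiors and -0.93 over all features. The direction of many single genes depended on how the columns were scaled, because with the TMM normalization of edgeR the median of all features moved from -0.93 to -0.09. With TMM, 398 interiors were higher and 10 lower, and the split over all features was 3507 higher and 3587 lower. Relative to the median of all features, the interiors stood 1.61 higher with column totals and 1.59 higher with TMM. All 263 interiors called higher with column totals were also called higher with TMM, while 10 of the 75 called lower remained so and none of the 75 was called higher.

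Coding regions of the same genes gave a comparison within the transcript. In 345 genes both regions were tested, and the interior had the higher log2 value in 315 of them (91.3%), with a median difference of 1.06. Of the 178 genes in this group whose interior was called higher, the coding region was called higher in 35, lower in 44 and not called in 99. None of the 57 genes whose interior was called lower had a coding region called higher, nor had any of the 110 whose interior was not called. Over all 345 genes the coding region was called higher in 35 and lower in 167.

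Among the 310 genes with at least 20 interior bins, 209 were above 0 in all 3 samples and 43 were below 0 in all 3. The median gene was at 0.87, 0.83 and 1.10, with a range of -1.30 to 4.57, -1.89 to 5.35 and -1.27 to 4.50. The SD between the UACC-62 replicates (n = 2) had a median of 0.25 over genes.

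The highest interiors, ranked among genes with at least 20 interior bins by the lowest of their 3 samples, belonged to mRNAs of different function. FGF13, a fibroblast growth factor homologue that stays in the cell and binds sodium channels, had 2057, 7000 and 9045 IP reads beside 66, 153 and 246 input reads in 33 interior bins. These correspond to 4.57, 5.35 and 4.50, and edgeR gave a log2 change of 4.82 ± 0.29 (SE; adjusted p = 2.91e-56). The reads came mostly from the stretch between 1000 and 2000 nt past the stop codon, which held 1905, 6778 and 8907 of them, and just 4.09% of the 806 interior positions were listed. MRPL19 was covered over 94.3% of its interior, with 15025, 17401 and 19736 IP reads beside 973, 879 and 739 input reads. Its values were 3.57, 4.15 and 4.04, and the change was 3.92 ± 0.27 (edgeR adjusted p = 8.82e-44), with 231 of 232 bins at or above 1 in every sample.

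The CELF1 mRNA itself was the last of these 8 interiors by that ranking, and by the edgeR change DYNLL2 (3.49) and CRIPT (3.36), named after their values had been seen, were above it. In 202 of 215 positions it had 16721, 20127 and 16108 IP reads beside 1806, 1366 and 884 input reads. Its log2 IP over input was 2.84, 3.72 and 3.49, and both UACC-62 replicates (mean 3.61 ± 0.17, SD, n = 2) were above the single SK-Mel-103 sample. The edgeR change was 3.35 ± 0.26 (adjusted p = 6.86e-34), and 1.33 for the coding region of the same gene (adjusted p = 4.84e-07). Also in this group were 3 zinc-finger genes. ZNF483 was at 3.76, 4.65 and 4.45 on few input reads (80, 72 and 43), ZNF264 at 3.26, 4.06 and 3.85, and ZNF805 at 3.32, 4.13 and 3.48. FBXO25, a ubiquitin ligase subunit of the F-box family (3.59, 3.71 and 3.91), and CCDC127 (3.29, 4.35 and 3.50) completed it, the latter with no more than 25 input reads in a sample. Values of the 8 genes lay between 2.84 and 5.35 in every sample, and they were chosen for being high.

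**Figure D3:**
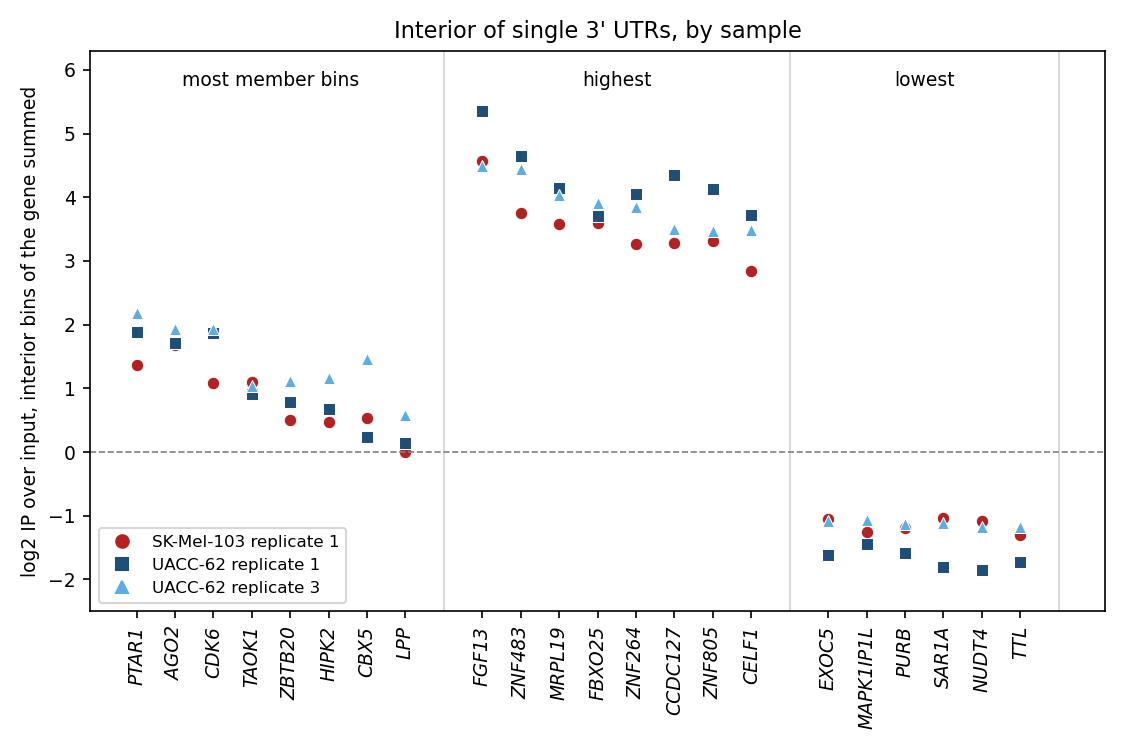
Log2 IP over input of the interior bins of a gene summed (y axis), by sample, for the 8 genes with the most interior bins, the 8 with the highest values (by the lowest of 3 samples) and the 6 with the lowest (by the highest of 3 samples) among genes with at least 20 interior bins. Points are single samples. The highest genes so ranked lie between 2.84 and 5.35 and the lowest between -1.84 and -1.04 in all samples.

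Ranked by the highest of the 3 samples, the lowest interiors were those of PURB, TTL, NUDT4, MAPK1IP1L, EXOC5 and SAR1A. By the edgeR change NAA50 (-1.32) and KPNA4 (-1.27), named after their values had been seen, would stand among them. PURB, a single-stranded nucleic acid binding protein, had 1600, 1437 and 2338 IP reads beside 2817, 3861 and 3156 input reads in 123 bins. It was at -1.19, -1.58 and -1.13, and no bin of PURB was at or above 1 in all 3 samples. TTL, the ligase that adds tyrosine to tubulin, was at -1.30, -1.72 and -1.18. SAR1A, a GTPase of COPII vesicles, was at -1.04, -1.80 and -1.12. In the 6 genes the edgeR change was between -1.40 (TTL) and -1.25 (EXOC5, a subunit of the exocyst), all called lower with column totals. With TMM the 6 values were between -0.56 and -0.41, and those of PURB, MAPK1IP1L and EXOC5 were not called (adjusted p = 0.0502, 0.0540 and 0.0525).

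The 8 genes with the most interior bins were spread between these limits. LPP, a LIM domain protein of focal adhesions, had 487 bins with 17691, 8771 and 13368 IP reads beside 13679, 7119 and 5477 input reads. Its log2 IP over input was -0.0034, 0.14 and 0.59, and it was not called (0.24 ± 0.24, edgeR adjusted p = 0.351). CDK6, a kinase of the G1 phase, had 24776, 42683 and 56164 IP reads beside 8986, 10429 and 9104 input reads over 392 of 411 positions, and was at 1.09, 1.88 and 1.93. It was called higher with 1.63 ± 0.24 (adjusted p = 1.29e-10), and both UACC-62 values exceeded that of SK-Mel-103. AGO2, the slicing Argonaute of the microRNA pathway, was at 1.68, 1.71 and 1.93, and PTAR1, of a prenyltransferase subunit family, at 1.36, 1.88 and 2.18. TAOK1, a kinase upstream of MAP kinase cascades, was at 1.10, 0.92 and 1.04. ZBTB20, a zinc-finger repressor, was at 0.50, 0.78 and 1.11, and HIPK2, a nuclear kinase, at 0.47, 0.68 and 1.17. CBX5, the heterochromatin protein HP1 alpha, was at 0.54, 0.23 and 1.47, so that SK-Mel-103 lay between the UACC-62 replicates (mean 0.85 ± 0.87, SD, n = 2). These 7 genes other than LPP were all called higher, beside 52.1% of all interiors tested. The 8 genes were chosen for their number of bins that had passed in IP.

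Whether the interior differs from the borders of the same 3′ UTR was asked within genes. In 468 genes with reads in both, the median of interior minus ends (the first and last 1000 nt together) was 0.13, 0.24 and 0.27 in the 3 samples (mean 0.21 ± 0.07, SD, n = 3). Where either stretch held no listed bin, the ends were the other stretch alone. The 3 medians were above 0, although an exact sign-flip test over 3 samples cannot go below p = 0.25. Against the first 1000 nt alone the medians were 0.30, 0.37 and 0.40 (448 genes), and against the last 1000 nt alone -0.12, 0.02 and -0.03 (277 genes). The interior thus stood above the stretch after the stop codon, and did not stand apart from the stretch before the end. With bins of at least 10 input reads in all 3 samples the mean of interior minus ends was 0.05.

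An interaction of IP and region within each gene, tested with edgeR over the 468 genes, called the interior above the ends in 156 genes (33.3%) and below in 57 genes (12.2%), which is also the background of this comparison. The UACC-62 replicate 1 decided part of the calls, since without it 66 and 11 remained. When each IP was not paired with its input, 18 and 0 genes were called (79 at an unadjusted p under 0.05; DESeq2, with pairs, called 130 and 38).

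**Figure D4:**
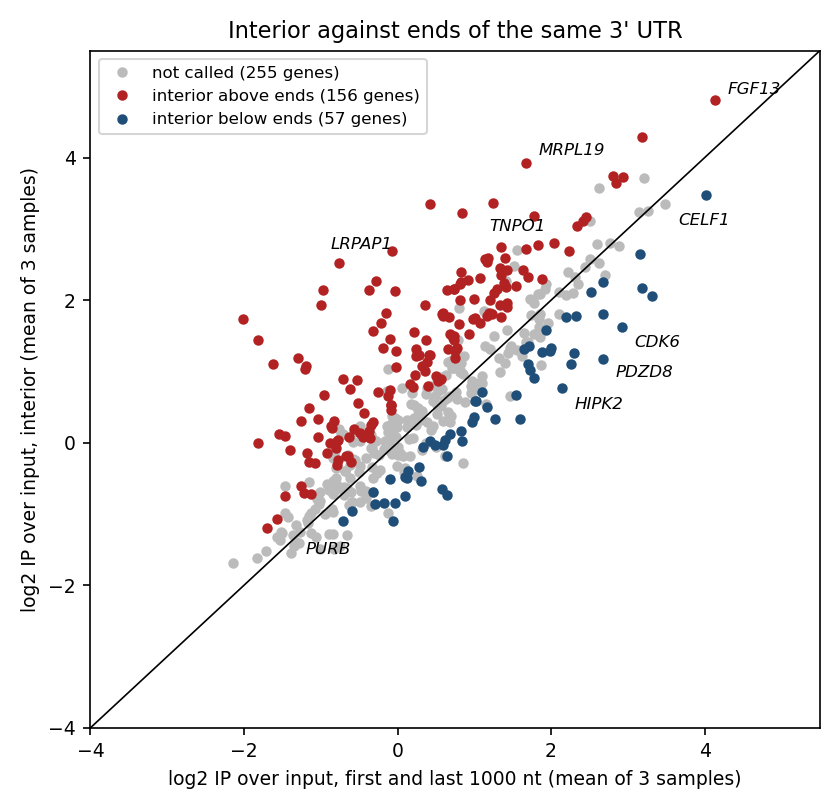
Mean log2 IP over input of 3 samples in the interior (y axis) against the first and last 1000 nt (x axis) of the same 3′ UTR, for 468 genes, with the line of equal values. Where either border stretch held no listed bin, the other stands alone. Red points (156 genes) were called above and blue points (57 genes) below by the edgeR interaction test.

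Among the genes called, the largest positive differences came from interiors with few reads. UMPS, an enzyme of pyrimidine synthesis, had 14, 25 and 17 IP reads beside 4, 3 and 3 input reads in 3 interior bins, with ends at -1.21, -2.38 and -2.43 (interior minus ends 4.16 ± 0.50, SE, edgeR adjusted p = 3.57e-08). SFMBT2 had 1 interior bin with 8, 19 and 20 IP reads and 1 input read in all, so that its value of 3.82 rests on that bin. LRPAP1, a chaperone of the LDL receptor family, had 135, 217 and 299 IP reads beside 25, 38 and 19 input reads in 21 bins, and was at 2.01, 2.33 and 3.21 in the interior against -0.12, -1.34 and -0.82 at the ends (3.50 ± 0.31, adjusted p = 8.35e-11). TRIM24, a chromatin reader, differed by 3.31 on 4 bins and DIS3, a nuclease of the RNA exosome, by 3.12 on 2 bins. At a much greater depth, MRPL19 differed by 2.24 ± 0.16 (adjusted p = 4.30e-13) and TNPO1 by 1.39 ± 0.16 (adjusted p = 7.26e-09).

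Among the genes called, the largest negative differences were found in PDZD8, RCAN3, SYNE3, HIPK2 and CDK6. PDZD8, a protein of membrane contact sites, was at 0.88, 0.998 and 1.66 in the interior and at 2.45, 2.70 and 2.88 at the ends (-1.51 ± 0.14, adjusted p = 2.87e-10). HIPK2 was at 2.01, 2.39 and 2.05 at the ends (-1.38 ± 0.16, adjusted p = 7.81e-09) and CDK6 at 2.52, 3.36 and 2.88 (-1.29 ± 0.17, adjusted p = 1.08e-07). In these 3 genes the interior was lower than the ends in each sample. RCAN3, a regulator of calcineurin, and SYNE3, a protein of the nuclear envelope, had 4 and 5 interior bins and differed by -1.45 and -1.40.

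Along single 3′ UTRs the position of the highest IP over input differed between genes. In CELF1 the first 1000 nt were at 2.12, 2.40 and 3.09, the stretch between 3000 and 4000 nt was at 3.29, 4.18 and 3.57, and the stretch from 6000 to 6293 nt was highest in all 3 samples (3.82, 4.50 and 3.89). The stretch between 3000 and 4000 nt held 7485, 9019 and 6781 IP reads, the most of any 1000 nt of this 3′ UTR. In MRPL19 the first 1000 nt were at 1.17, 0.65 and 1.17, the stretch between 3000 and 4000 nt at 4.33, 4.46 and 4.01, and the stretch between 4000 and 5000 nt at 3.91, 5.06 and 4.81. TNPO1 rose from 0.34, 0.66 and 0.81 in the first 1000 nt to 3.21, 3.62 and 3.16 between 2000 and 3000 nt, and was at 1.42, 1.44 and 1.95 between 4000 and 5000 nt. The order was the opposite in CDK6, which was at 3.31, 4.17 and 3.48 in the first 1000 nt, at 2.56, 3.35 and 2.93 between 1000 and 2000 nt, and at 0.35, 1.01 and 1.47 between 4000 and 5000 nt, although the stretch from 10000 to 10219 nt was again at 2.02, 2.67 and 2.27. HIPK2 was highest towards its end, with 2.52, 2.89 and 2.29 from 11000 to 11357 nt, 1.78, 2.26 and 1.97 between 10000 and 11000 nt and -0.30, -0.20 and 0.97 between 4000 and 5000 nt. PURB stayed below 0 in every stretch and sample. These stretches were described without a test.

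**Figure D5:**
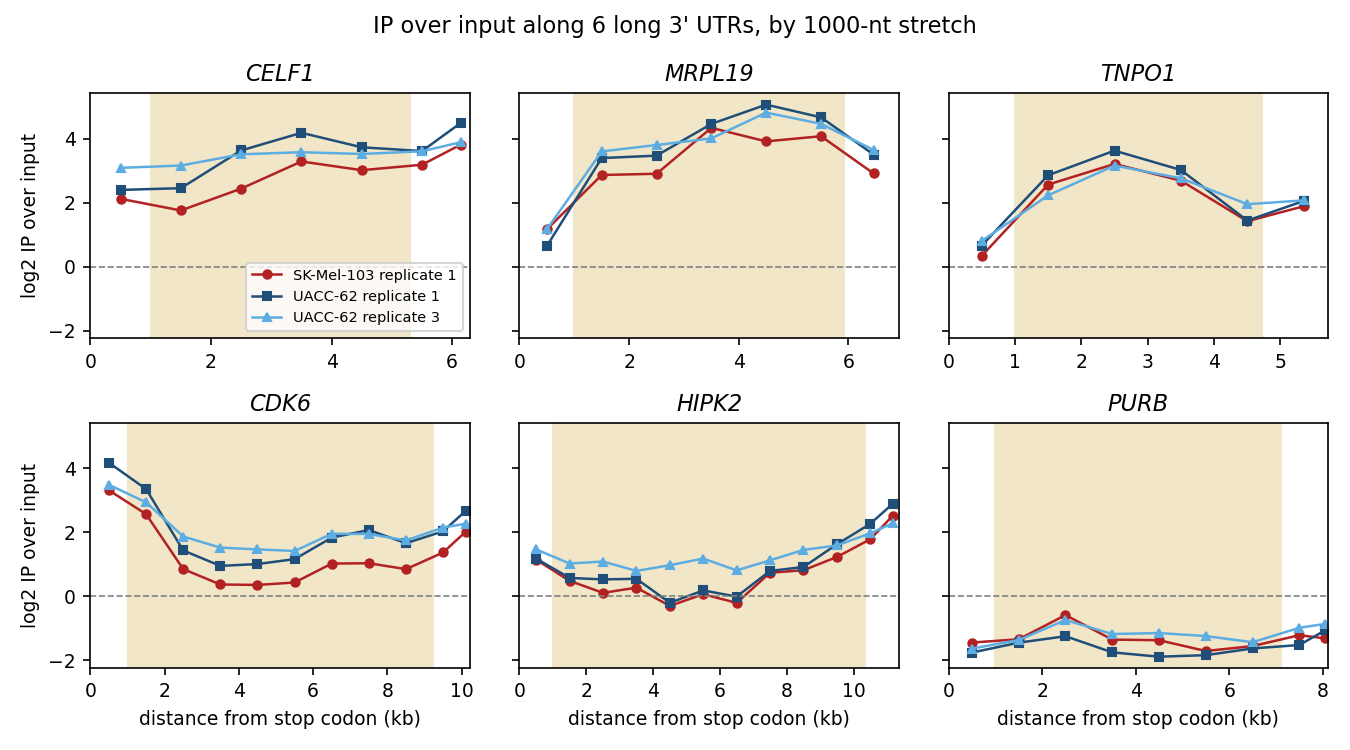
Log2 IP over input (y axis) by 1000-nt stretch against distance from the stop codon (x axis, kb) in 6 genes, 1 line per sample, with the interior shaded. The last stretch is shorter than 1000 nt. CELF1, MRPL19 and TNPO1 are highest inside or towards the end, CDK6 next to the stop codon and PURB is below 0 throughout.

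Genes of 6 lists were then followed, the lists having been drawn up with results of these data known. Of 30 genes of RNA-binding proteins and microRNA effectors, 12 had a 3′ UTR over 5000 nt and all 12 had interior bins, 1132 in all. In the edgeR fit 11 were tested, 6 were higher, none was lower (background 15.7% and 60.1%) and the median change was 0.96, against -0.93 over all features. The interiors of all genes were 52.1% higher and 14.9% lower with a median of 0.68, so that the share of this list called higher was close to that of interiors in general. TNRC6B, a scaffold that links Argonaute to deadenylases, had 2968, 7156 and 9011 IP reads beside 544, 1216 and 975 input reads, and was at 2.07, 2.40 and 2.51 (2.33 ± 0.26, adjusted p = 4.84e-18). All 3 samples of TNRC6B were above those of AGO2. RC3H1 (Roquin), which binds stem-loops of decaying mRNAs, was at 1.19, 0.66 and 1.02 and was called higher (0.96 ± 0.25, adjusted p = 0.000269). Its paralogue RC3H2 was at 0.43, -0.15 and 0.38 and was not called (adjusted p = 0.418), nor was QKI, a splicing regulator of the STAR family, at 0.23, -0.02 and -0.02 (adjusted p = 0.825). With TMM 11 of the 11 were higher, beside 78.8% of all interiors tested.

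In growth factor and RAS to PI3K signalling, 5 of 23 genes had such a 3′ UTR, and all 5 had interior bins and were tested. CBL, a ubiquitin ligase for receptor tyrosine kinases, IGF1R, the receptor of insulin-like growth factor, and BRAF were higher, and RPS6KA3 was lower with column totals, whereas with TMM 4 were higher and none lower. Of all interiors tested, 52.1% were higher and 14.9% lower with column totals, and 78.8% and 1.98% with TMM. IGF1R had 341, 557 and 444 IP reads beside 81, 69 and 64 input reads and was at 1.69, 2.84 and 2.08 (2.22 ± 0.27, adjusted p = 2.89e-15). CBL was at 1.07, 1.32 and 1.68 (adjusted p = 2.98e-07). RPS6KA3, a kinase downstream of ERK, was at -0.58, -1.10 and -0.55 and at 0.10 with TMM. SHOC2, a RAS pathway scaffold, was at 0.57, 0.21 and 0.19 and was not called (adjusted p = 0.217). In IGF1R the interior was above the ends (0.71 ± 0.27, adjusted p = 0.0320).

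For cell cycle and survival, 5 of 17 genes had such a 3′ UTR, and CDK6, XIAP and MDM4 had interior bins, while BCL2 and CCND2 had none. All 3 were higher, beside 52.1% of all interiors tested. XIAP, an inhibitor of caspases, was at 0.69, 0.57 and 0.61 with the samples close to each other (0.63 ± 0.25, adjusted p = 0.0160). MDM4, a partner of MDM2 in the control of p53, was at 0.50, 0.76 and 1.21 in the interior and at -0.36, 0.02 and 0.84 at the ends, a difference of 0.69 ± 0.17 (adjusted p = 0.00120). The interior of CDK6 was below its ends (-1.29 ± 0.17, edgeR adjusted p = 1.08e-07), and XIAP was not called in this comparison.

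Chromatin and transcription genes had the most interior bins of the 6 lists, with 12 of 23 genes having such a 3′ UTR and 1262 interior bins in all 12. Of these, 5 were higher (ZBTB20, SMAD2, NFAT5, SP1 and TET3), 2 lower (PURB and SMAD4) and 5 not called, with a median of 0.26. With TMM 7 were higher and none lower. Over all interiors tested 52.1% were higher and the median was 0.68, and 78.8% were higher with TMM, so that neither count of this list exceeded the share of interiors in general. SMAD2, a mediator of TGF-β signals, has the longest 3′ UTR of all genes with members (32870 nt). It had 6107, 4492 and 6017 IP reads beside 1314, 827 and 614 input reads, in 239 bins that made up 15.5% of its interior, and was at 1.84, 2.28 and 2.59. NFAT5, a transcription factor of the osmotic response, was at 1.97, 2.37 and 2.32, and SP1 at 1.75, 2.14 and 2.16. SMAD5, which carries BMP signals, was at 0.0030, -0.50 and 0.0054 and was not called with column totals (adjusted p = 0.551), but was at 0.68 and called higher with TMM.

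Of 13 ubiquitin ligases, MIB1 and RNF217 had such a 3′ UTR and neither was called with column totals (edgeR adjusted p = 0.0827 and 0.399). Both were called higher with TMM. Of all interiors tested, 52.1% were higher with column totals and 78.8% with TMM. MIB1, a ligase for Notch ligands, was at 0.58, 0.36 and 0.44 in the interior and at 0.08, -0.27 and -0.06 at the ends (difference 0.54 ± 0.15, adjusted p = 0.00264). Among 18 genes of membrane, adhesion and traffic, 3 had such a 3′ UTR. ITGB8, an integrin that activates TGF-β, was called higher (1.11 ± 0.25, adjusted p = 1.79e-05). It had 3774, 22781 and 19409 IP reads beside 2443, 6930 and 4264 input reads, so that SK-Mel-103 was at 0.25 and UACC-62 at 1.56 and 1.49. The interior of ITGB8 was below its ends (-0.59 ± 0.17, edgeR adjusted p = 0.00387). LRP6, a Wnt coreceptor, was at 0.66, -0.14 and 0.47, and SLC7A11, the cystine transporter, at 0.02, -0.0026 and -0.58. Neither was called with column totals, and with TMM both were higher, beside the same 78.8% of all interiors tested.

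The cell lines were not tested against each other, since SK-Mel-103 had no replicates. Over the 310 genes with at least 20 interior bins, SK-Mel-103 minus the mean of UACC-62 had a median of -0.12 and ranged from -1.40 to 1.22. The limits were set by FZD4, a Wnt receptor, and ATXN1, a polyglutamine protein, both named after their values had been seen. FZD4 was at 1.79 in SK-Mel-103 and at 3.50 and 2.87 in UACC-62, and ATXN1 at 1.31 in SK-Mel-103 and at -0.17 and 0.33 in UACC-62. In 10 of these genes SK-Mel-103 was above 0 and both UACC-62 replicates below 0, and in 3 genes the reverse.

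Short motifs were counted in the letters of the interior bins, with overlapping matches allowed, on the transcript strand only. The bins themselves held TGTT in 13.4% and TGTG in 9.98%. All interior positions of the same genes held them in 11.8% and 9.12%, interior positions in none of the lists in 10.9% and 8.58%, and all 3′ UTR bins of the 3 lists in 14.0% and 10.8%. With interior positions weighted by the number of member bins of their gene, so that genes counted alike on both sides, the shares were 13.0% and 9.59%, close to those of the bins. Interior bins were hence above unlisted positions and slightly below 3′ UTR bins in general. In the interior bins with more than 30 IP reads the shares were 15.5% and 11.2%. Including 40 nt on each side, 56.0% of interior bins had TGTT and 44.3% TGTG, against 45.8% and 38.8% of unlisted positions and 52.8% and 42.7% of interior positions with these weights.

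The longer TGTTTGT was found within this window of 2.74% of interior bins and 1.67% of unlisted positions, and TGTGTGT of 2.83% and 1.55%. With the same weights these motifs were in 2.27% and 2.35% of positions. ATTTA, the core of AU-rich elements, was in 3.78% of the interior bins, 3.73% of interior positions and 3.75% of unlisted positions. TGTANATA, the site of Pumilio proteins, was in 0.284%, 0.260% and 0.264%. The bins were 32.8% T, compared with 31.6% over all interior positions, and 34.7% T where more than 30 IP reads were found. These shares are descriptions, adjacent bins share bases in their windows, and T content was not held equal.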

How the data were processed

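CELF1 RIP-Seq lists of 3 IP samples were analysed, with groups and replicate numbers from the sample labels. The authors used TopHat to align single-end reads of 40 nt to GRCh37, with the first-strand option and multiple hits allowed, and Piranha to count them in 20-nt bins. The submitters' processing notes name TopHat2 2.0.4, Bowtie 0.12.7 and SAMtools 0.1.16. The deposited read counts give the IP reads of each bin and are not normalized. The deposited p-value is that of Piranha, and the deposited ratio in the last column is the input covariate, in which 0.01 stands for no input. Replicates were not pooled by the authors. No other per-sample columns were present.

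Each covariate divided by the smallest one gave the number of input reads of the bin (largest deviation from a whole number 0.0269 reads). The transcript strand was the reverse of the listed strand. Genes came from GENCODE version 44 mapped to GRCh37. Reads summed per gene and region were tested with edgeR 4.0.16 (R 4.3.3) using column totals as library sizes, Benjamini-Hochberg adjustment over all features and at least 60 reads over the 6 columns. Each IP was paired with its own input because both come from 1 lysate. The interaction test needed 30 reads in each region. The p-values rest on pairs from both cell lines, with a single pair from SK-Mel-103, so line differences and replicate spread are mixed. The spread entering each test was estimated with information shared across features, so an SE need not follow a gene's own spread. CBX5 (UACC-62 SD 0.87) and XIAP (UACC-62 SD 0.025) both had an SE of 0.25. Nothing says that replicates were separate cultures. DESeq2 1.42.0 was an alternative. On simulated data of 11526 features, 67 of 200 features changed 2-fold were called in the first fit, beside 7 false calls. In the second fit 26 of 100 were called, beside 0 false calls. The simulated counts had the same spread for every feature, few changed features and no selection on passing in IP. Rates of false calls in the real lists therefore cannot be read from them. Python 3.11.15 was used.

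Members, lists and tests were chosen with earlier results of these data known. Genes named are the 8 with the most member bins, the 8 highest and 6 lowest with at least 20 member bins, the 5 largest differences in each direction of the interaction test, genes of the 6 lists with at least 10 member bins (up to 6 a list), and those of the sequences shown. Other genes called in the lists are named without values. Some genes are not reported here, and the counts of the lists leave them out, while the fits across all features keep them. Multiply aligned reads, mapped up to the limit of the aligner, were kept by the authors and may be shared between paralogues.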

Additional observations from a re-analysis of the deposited data

Results flagged for a closer look

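In 5 named genes the single SK-Mel-103 sample and both UACC-62 replicates lay on opposite sides of 0 in log2 IP over input of the interior, a difference between the cell lines that was not tested. QKI was at 0.23 in SK-Mel-103 replicate 1 and at -0.02 in both UACC-62 replicates. RCAN3 was at 0.31 against -1.44 and -1.06, on 4 bins with 17, 82 and 94 input reads. SLC7A11 was at 0.025 against -0.0026 and -0.58. In the opposite direction, LPP was at -0.0034 against 0.14 and 0.59, and DIS3 at -0.021 against 2.08 and 2.27, on 2 bins with 17, 6 and 4 input reads. All of these values apart from RCAN3 and the UACC-62 values of DIS3 lay within 0.6 of 0, and the side of 0 depends on how columns are scaled.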

How the results depend on the processing

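With other settings, 598 of 719 values of single named genes kept their direction and their side of the threshold, 81 kept the direction but lost the call, 17 gained one and 23 turned. Listing as given instead of the reverse strand left 297 member bins, 3′ UTRs over 8000 nt gave 12048 and 2000 nt from both ends 16732. Bins over 30 IP reads, a limit that itself selects on IP, gave 69.5% at or above 1 and 0.111% at or below -1. They gave 0.31 for the median interior minus ends, which was 0.37 over 8000 nt and 0.31 at 500 nt from both ends. With at least 10 input reads, added after seeing the data, these were 15.9%, 7.98% and 0.051. The bin with 40 nt on each side held TGTT in 56.0%, TGTG in 44.3%, TGTTTGT in 2.74%, TGTGTGT in 2.83%, ATTTA in 20.5% and TGTANATA in 2.02%, its window being 5 times longer. Leaving out each sample in turn gave 2.21 to 3.45% of bins at or below -1 and 13.1 to 20.7% over 30 IP reads.

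Of 263 interiors higher and 75 lower, TMM gave 398 and 10, beside 30.1% and 30.8% of all features. DESeq2 gave 384 and 6, beside 27.8% and 24.3% of all features. Bins over 30 IP reads gave 117 and 3 of 141 tested, beside 39.4% and 40.5% of all features. The fit with no replicate block gave 198 and 35, beside 10.8% and 46.8% of all features. Leaving out 1 sample gave 183 to 247 higher and 41 to 82 lower, with 41 and 42 lower without UACC-62 replicate 1 and replicate 3. Of 156 interiors above and 57 below their ends, no replicate block left 18 and 0, bins over 30 IP reads 41 and 14 of 94 tested, and leaving out 1 sample 66 to 147 and 11 to 63, the low values without UACC-62 replicate 1. The cause of these shifts was not tested, apart from the scaling and the smaller number of bins.

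Values that turned with TMM and DESeq2 were those of SMAD5 (0.68 and 0.71), RPS6KA3 (0.10 and 0.13), SLC7A11 (0.64 and 0.68), RNF217 (0.58 and 0.62) and, with DESeq2 only, RCAN3 (0.073). Leaving out each sample in turn, SMAD5 ranged from -0.25 to 0.0046, SLC7A11 from -0.30 to 0.013 and QKI from -0.021 to 0.10. Of interior minus ends, LPP turned with no replicate block (-0.025) and MAPK1IP1L too (-0.011), and leaving out each sample LPP ranged from -0.037 to 0.050, MAPK1IP1L from -0.17 to 0.13, XIAP from -0.067 to 0.026 and SMAD5 from -0.37 to 0.014. With bins over 30 IP reads ZBTB20 was at 1.14, PTAR1 at 0.079, NFAT5 at 0.57 and XIAP at 0.23. Of these, ZBTB20 and NFAT5 were then called.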
